A study of Mus musculus with 18 samples.

Results

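Promoter accessibility was compared between somatostatin-positive (SOM+) nuclei of the central amygdala (CeA) and SOM+ nuclei of the prefrontal cortex. The members were the 4 CeA and the 4 cortex libraries sorted for SOM+ nuclei, 8 of the 18 libraries of the series, chosen by the region and the sort in their labels. All came from C57BL/6J mice of 2 to 3 months, labelled wild type, whose somatostatin neurons carried a nuclear GFP (SOMH2B-GFP) on which the nuclei were gated. Each region was represented by 2 libraries of fear-conditioned mice and 2 of control mice, library 1 of each labelled male and library 2 labelled female, with 50000 nuclei per library. The protocol speaks of technical replicates in describing the sort, so these libraries may not all be separate animals. The p-values below therefore concern the spread between libraries and not necessarily that between animals. For CeA minus cortex that spread was taken from the trend over promoters, not from each promoter's own libraries. A second, smaller use was made of the 10 bulk libraries, gated on a DNA stain alone: 5 of CeA and 5 of cortex, each with 3 Erbb4 knockout libraries labelled male and 2 wild-type libraries labelled female and male. Mice of 2 to 3 months and 50000 nuclei per library were also given for these bulk libraries. Their genotype entry reads Erbb4 knockout in SOM+ cells for all 10, so wild type was taken from the titles. Every library was an ATAC-seq library, in which the transposase Tn5 cuts open DNA, and the deposited value was the number of reads in a window of 1 kb to each side of a transcription start (build mm9).

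Somatostatin marks inhibitory neurons in both regions, but of different kinds. In the cortex it marks dendrite-targeting interneurons that arise in the medial ganglionic eminence under the transcription factors Nkx2-1, Lhx6 and Sox6. In the CeA, a striatum-like nucleus that gates learned defensive behaviour, it marks a class of GABAergic projection neurons that is intermingled with other peptide-defined classes and that takes part in fear conditioning. An open promoter is permissive for transcription, and a wide-open one is common at active genes, but accessibility is not a measure of RNA.

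5 promoters are shown because the account turns on them: that of Sst itself, by which the nuclei were chosen, those of Cort and Oprd1, which were lower in CeA, and those of Nts and Htr2c, which were higher. The sequences are RefSeq promoters of build GRCm38.p6, 250 bases before to 50 bases after the annotated start, read 5′ to 3′ on the gene's strand, and their coordinates are those of that build, whereas the windows given further on are in mm9. Capitals mark 3 palindromic motifs searched on both strands: the cAMP response element TGACGTCA, present in 1.79% of the 32851 promoters of the table, the homeodomain core TAATTA, present in 5.29%, and the E-box CAGCTG, present in 16.3%.
Sst (chr16:23890795-23891094, minus strand): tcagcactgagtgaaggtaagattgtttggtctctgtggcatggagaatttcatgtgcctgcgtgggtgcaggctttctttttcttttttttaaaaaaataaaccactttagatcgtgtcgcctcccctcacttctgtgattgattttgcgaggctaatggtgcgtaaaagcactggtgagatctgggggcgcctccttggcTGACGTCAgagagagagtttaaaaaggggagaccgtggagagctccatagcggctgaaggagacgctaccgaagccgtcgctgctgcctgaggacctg
Cort (chr4:149126714-149127013, minus strand): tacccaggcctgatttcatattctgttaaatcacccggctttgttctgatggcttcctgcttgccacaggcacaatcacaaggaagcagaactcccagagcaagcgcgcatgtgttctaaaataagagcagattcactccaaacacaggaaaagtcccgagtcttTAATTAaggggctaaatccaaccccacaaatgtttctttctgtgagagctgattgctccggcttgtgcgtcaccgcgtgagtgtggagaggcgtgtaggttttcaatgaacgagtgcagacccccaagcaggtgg
Nts (chr10:102490369-102490668, minus strand): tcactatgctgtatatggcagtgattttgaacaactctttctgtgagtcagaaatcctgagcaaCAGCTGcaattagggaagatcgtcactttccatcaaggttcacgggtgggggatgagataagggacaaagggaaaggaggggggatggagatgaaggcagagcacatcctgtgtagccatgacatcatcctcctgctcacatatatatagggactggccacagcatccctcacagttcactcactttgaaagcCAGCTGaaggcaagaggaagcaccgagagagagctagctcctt
Htr2c (chrX:146962263-146962562, plus strand): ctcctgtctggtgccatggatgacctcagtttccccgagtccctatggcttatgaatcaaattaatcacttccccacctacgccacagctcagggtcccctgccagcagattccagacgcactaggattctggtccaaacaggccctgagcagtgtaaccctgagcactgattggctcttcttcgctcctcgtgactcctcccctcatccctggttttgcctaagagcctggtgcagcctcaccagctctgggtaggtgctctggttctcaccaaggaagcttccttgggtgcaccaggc
Oprd1 (chr4:132144437-132144736, minus strand): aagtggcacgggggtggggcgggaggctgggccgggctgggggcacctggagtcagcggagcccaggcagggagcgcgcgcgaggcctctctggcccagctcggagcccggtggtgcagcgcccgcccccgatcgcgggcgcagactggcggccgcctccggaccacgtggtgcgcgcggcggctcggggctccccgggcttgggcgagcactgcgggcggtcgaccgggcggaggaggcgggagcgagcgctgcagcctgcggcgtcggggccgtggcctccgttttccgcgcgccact
The capitals in Sst are a cAMP response element that begins 48 bases before the start. In Cort the homeodomain core begins 85 bases before the start, and in Nts the E-boxes begin 186 bases before and 7 bases after it. None of the 3 motifs was found in these 300 bases of Htr2c or Oprd1. The promoters differ in base composition: the 300 bases hold 43 CpG dinucleotides in Oprd1, 13 in Sst, 10 in Cort, 5 in Htr2c and 3 in Nts, against a median of 7 over the table.

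Depth and signal differed between the regions before any gene was considered. Promoter totals were 2648959 to 7727263 reads in CeA and 9452310 to 14668694 reads in cortex SOM+ libraries, so that a count of 0 allows up to 1.13 CPM in the shallowest and 0.205 CPM in the deepest library (3 counts, counting error only). The ratio of open to closed promoters, taken as the median of 86 ribosomal protein genes over the median of 1102 olfactory receptor genes, was 27.6 ± 8.47 in CeA and 61.5 ± 8.70 in cortex libraries (SD, n = 4 each; exact two-sided permutation test p = 0.0286, the smallest that 70 arrangements allow). Reads at Y-linked promoters matched the labelled sex in the 8 SOM+ libraries and went against it in 4 of the 10 bulk libraries. Gad1, which makes GABA, set the sorts apart in both regions. Levels in these sentences are scaled over all 18 libraries and so differ slightly from the 8-library levels used further on. Gad1 averaged 84.0 CPM in CeA SOM+ and 91.6 CPM in cortex SOM+ nuclei, against 57.1 CPM in CeA bulk and 20.6 CPM in cortex bulk nuclei. Neurod6, of cortical glutamatergic neurons, averaged 5.45 CPM in CeA SOM+ and 10.9 CPM in cortex SOM+ nuclei, against 11.6 CPM in CeA bulk and 81.1 CPM in cortex bulk nuclei. Ermn, of oligodendrocytes, averaged 6.66 and 4.61 CPM in CeA and cortex SOM+ nuclei, against 25.8 and 34.9 CPM in CeA and cortex bulk nuclei. Sst did not separate the sorts in CeA, with 11.6 to 26.4 CPM in SOM+ and 12.7 to 25.7 CPM in bulk libraries, and overlapped in cortex too, with 14.5 to 18.4 CPM in SOM+ and 7.81 to 18.6 CPM in bulk libraries.

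Of 25157 promoters tested, 5314 (21.1%) were higher in CeA and 6829 (27.1%) were lower in CeA than in cortex SOM+ nuclei (edgeR quasi-likelihood test with treatment held in the 4 group means, Benjamini-Hochberg adjusted p under 0.05). In this comparison a promoter is written as called when it passed that test, and a log2 difference is CeA minus cortex with its standard error (SE). The difference exceeded 2-fold at 2369 promoters called higher and at 1422 called lower, 4-fold at 250 and 49, and 8-fold at 22 and 0. In 4362 promoters (17.3%) all 4 CeA libraries lay above all 4 cortex libraries, and in 6519 (25.9%) all lay below. Each library is a pool, so that fewer nuclei with an open promoter and less opening in each cannot be told apart. Levels are given as CPM, that is counts per library size, with library sizes adjusted by the trimmed mean of M-values (TMM).

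Direction went with level. Promoters called higher in CeA had a median level of 10.3 CPM, and those called lower 56.0 CPM. Below 5 CPM the median log2 difference was 0.76, with 1772 promoters called higher and 23 lower, whereas at 100 CPM and above it was -0.34, with 226 higher and 1258 lower. Cyclic loess scaling, which removes any trend with level, left 217 higher and 251 lower below 5 CPM, and 5268 higher and 5298 lower in all. Of the promoters over 2-fold with TMM, 1507 of the 2369 higher and 12 of the 1422 lower lay below 5 CPM. Both scalings called 3361 promoters higher and 4896 lower, and no promoter was called in opposite directions. The share of calls that were higher was 43.8% with TMM, 49.9% with cyclic loess and 61.5% with scaling to the total count, which moved the median of all promoters to 0.26, against 0.042 with TMM and -0.023 with cyclic loess. Since the CeA libraries were also the shallower ones with the lower ribosomal to olfactory ratio, weak promoters are named below with their cyclic loess result where it differs. List counts are followed by those of another scaling where it moved the share of higher calls by over 10 percentage points, and by those without a library where leaving it out moved a count by over 1.5 times. With TMM they are to be read beside the 21.1% of all promoters called higher and the 27.1% called lower. The part of the signal-to-background difference in the counts was not tested.

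**Figure D1:**
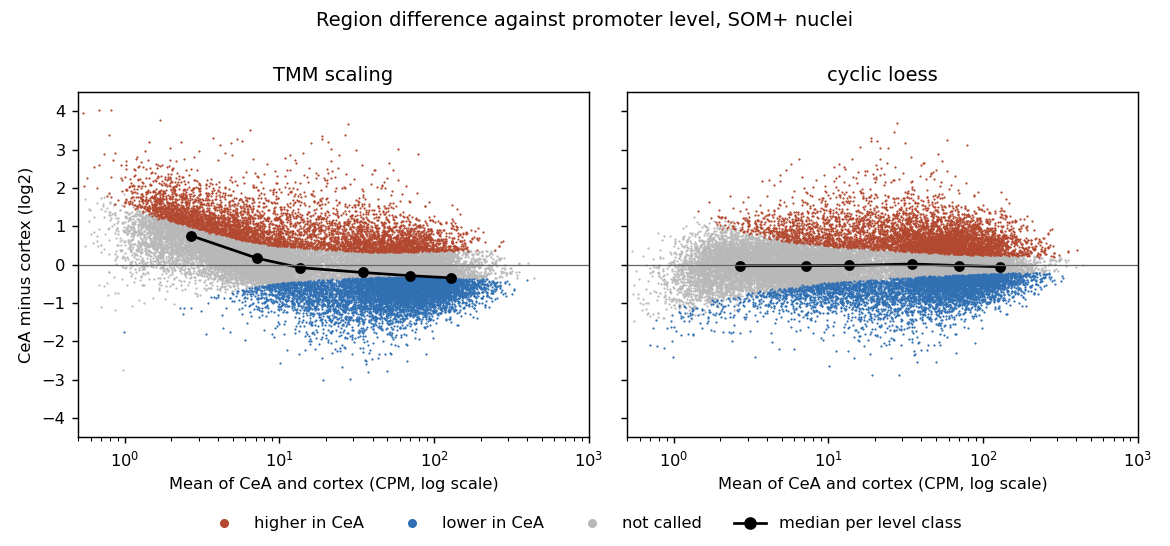
Log2 difference between CeA and cortex SOM+ nuclei (y axis) against the mean of both region means (x axis, CPM on a log scale) for 25157 promoters, with TMM scaling on the left and cyclic loess on the right; red points were called higher in CeA, blue points lower, grey points not called, and black points give the median of each level class. With TMM the medians fall with level, 0.76 below 5 CPM and -0.34 at 100 CPM and above, and with cyclic loess they stay near 0.

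The peptide genes separated the regions in both directions. Penk, which encodes the enkephalins and lies at chr4:4064593-4066592, had 42.3 and 35.5 CPM in fear and 46.0 and 38.5 CPM in control CeA libraries, against 9.59 and 4.81 CPM in fear and 7.23 and 6.49 CPM in control cortex libraries. All 4 CeA libraries stood above all 4 cortex libraries, with a log2 difference of 2.51 ± 0.18 (95% interval 2.17 to 2.86; adjusted p = 1.23e-43). Nts, which encodes neurotensin, had 8.39 and 12.6 CPM in fear and 12.0 and 10.5 CPM in control CeA libraries, against 2.83 and 1.49 CPM in fear and 2.81 and 3.03 CPM in control cortex libraries. The groups did not overlap, with a log2 difference of 2.07 ± 0.28. At Cort (chr4:148499873-148501872), which encodes cortistatin, a peptide related to somatostatin, the order was the opposite: it had 13.9 and 10.1 CPM in fear and 13.1 and 13.6 CPM in control CeA libraries, against 79.1 and 93.4 CPM in fear and 86.9 and 88.6 CPM in control cortex libraries. The lowest cortex library was far above the highest CeA library, with a log2 difference of -2.77 ± 0.17 (95% interval -3.09 to -2.44; adjusted p = 3.08e-58). Npy, which encodes neuropeptide Y and is shared with many cortical somatostatin cells, had 12.9 and 10.1 CPM in fear and 12.6 and 11.01 CPM in control CeA libraries, against 33.5 and 33.2 CPM in fear and 34.3 and 26.8 CPM in control cortex libraries. It was lower in all 4 CeA libraries (log2 difference -1.44 ± 0.18).

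Sst itself was not called. Its promoter (chr16:23889931-23891930) had 15.2 and 21.0 CPM in fear and 24.6 and 11.3 CPM in control CeA libraries, against 13.5 and 17.0 CPM in fear and 15.2 and 16.9 CPM in control cortex libraries, and the groups overlapped. The CeA libraries spread over a wider range than the cortex libraries, and the log2 difference of 0.23 ± 0.18 had a 95% interval of -0.13 to 0.58 (adjusted p = 0.295). Single CeA libraries decided it: without control library 1 the difference was -0.12, and without control library 2 it was 0.52 and called (adjusted p = 0.0218, over the range of 0.0218 to 0.70 that leaving out each library gave). Among the 32 neuropeptide genes tested, 6 were called higher and 12 lower in CeA, beside 21.1% and 27.1% of all promoters, and their median log2 difference was -0.21, or 0.005 with total count scaling, which called 9 higher and 10 lower. The others with the largest differences were Tac1, of substance P (1.20), and Crh, of corticotropin-releasing hormone, on the higher side, and Vgf, a secreted precursor induced by neurotrophins (-0.95), and Hcrt, of the orexins (-0.94), on the lower side. Crh had 23.6 and 21.7 CPM in fear and 24.3 and 14.2 CPM in control CeA libraries, against 14.0 and 12.4 CPM in fear and 13.7 and 9.63 CPM in control cortex libraries. The CeA values were higher in all 4 libraries (log2 difference 0.77 ± 0.18; adjusted p = 0.000117). Avp, of vasopressin, the strongest of the peptide promoters that were not called, averaged 18.4 ± 2.23 CPM in CeA and 23.4 ± 4.495 CPM in cortex (log2 difference -0.33 ± 0.17; adjusted p = 0.0993).

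**Figure D2:**
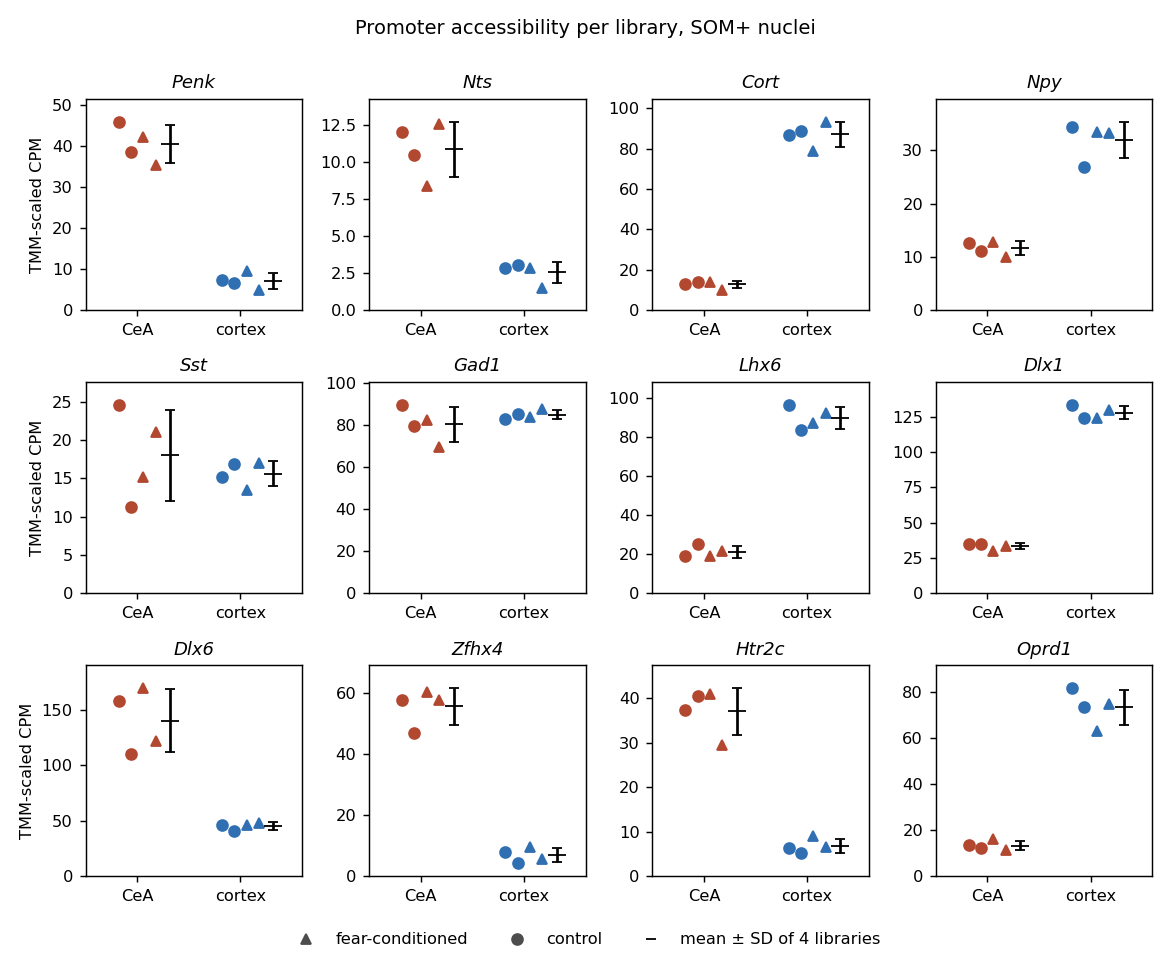
TMM-scaled CPM (y axis, from 0) in each SOM+ library of CeA and of cortex at 12 promoters; triangles are fear-conditioned, circles control, and the bar to the right of each group is its mean ± SD over 4 libraries. Penk, Nts, Dlx6, Zfhx4 and Htr2c are higher in all 4 CeA libraries, Cort, Npy, Lhx6, Dlx1 and Oprd1 are lower in all 4, and Sst and Gad1 overlap.

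The receptors for peptides leaned towards CeA. Of 41 tested, 17 were called higher and 10 lower (median log2 difference 0.19, or 0.23 with cyclic loess), and 19 higher and 7 lower with total count scaling. The exception in size was Oprd1 (chr4:131699402-131701401), the delta opioid receptor, which binds the enkephalins: it had 16.1 and 11.3 CPM in fear and 13.7 and 12.3 CPM in control CeA libraries, against 63.3 and 75.1 CPM in fear and 81.9 and 73.7 CPM in control cortex libraries. No library of one region reached the range of the other (log2 difference -2.43 ± 0.16; adjusted p = 3.64e-47), so the gene for an opioid peptide and the gene for its receptor moved in opposite directions between the same nuclei. Galr3 of galanin (-1.06), Hcrtr1 of the orexins (-1.04) and Sstr1 of somatostatin (-0.92) were also lower. Vipr2, a receptor of vasoactive intestinal peptide (1.58), Oprk1, the kappa opioid receptor (1.39), Calcr, the calcitonin receptor (1.21), and Trhr, the receptor of thyrotropin-releasing hormone (1.18), were higher, with adjusted p-values of 3.59e-12, 3.37e-07, 4.98e-06 and 7.41e-05. Sstr2, the strongest of the receptor promoters not called, averaged 32.4 ± 5.92 CPM in CeA and 33.7 ± 4.59 CPM in cortex and was not called (log2 difference -0.049 ± 0.15).

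Transcription factor genes differed between the regions as groups. Of 19 factors of medial ganglionic eminence interneurons, 13 were lower and 5 higher in CeA (median log2 difference -1.12, or -0.94 with cyclic loess), and in all 13 the 4 CeA libraries lay below the 4 cortex libraries. Without CeA control library 1, CeA fear library 1 or cortex fear library 2, 3 were called higher. Lhx6, which specifies these interneurons, lies at chr2:35958581-35961928 and had 19.1 and 21.7 CPM in fear and 18.9 and 25.2 CPM in control CeA libraries, against 87.1 and 92.3 CPM in fear and 96.7 and 84.0 CPM in control cortex libraries. That is a log2 difference of -2.10 ± 0.16 with no overlap. Sox6, which acts after Lhx6, had 5.00 and 10.99 CPM in fear and 8.21 and 7.34 CPM in control CeA libraries, against 25.6 and 29.8 CPM in fear and 34.8 and 27.1 CPM in control cortex libraries, again without overlap (log2 difference -1.93 ± 0.19). The factors Maf (-2.12) and Zeb2 (-1.99) were also lower, with cortex means of 95.9 and 24.8 CPM. The Zeb2 window overlaps that of an antisense transcript, Zeb2os, so reads cannot be assigned between them.

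The Dlx genes, homeobox factors of nearly all forebrain GABAergic neurons, split by cluster. Dlx1 (chr2:71366502-71368501), chosen after its values were seen, had 30.0 and 33.6 CPM in fear and 35.1 and 34.9 CPM in control CeA libraries, against 124 and 129.6 CPM in fear and 133 and 124 CPM in control cortex libraries. It was lower in every CeA library (log2 difference -1.94 ± 0.16), and its neighbour Dlx2, also chosen after its values were seen, followed (log2 difference -1.46 ± 0.15). Dlx6 (chr6:6812334-6814333), of the other cluster, had 169 and 122 CPM in fear and 158 and 110.1 CPM in control CeA libraries, against 46.6 and 48.2 CPM in fear and 45.8 and 40.6 CPM in control cortex libraries. It was higher in every CeA library (log2 difference 1.63 ± 0.16), as was its neighbour Dlx5 (log2 difference 1.15 ± 0.15), while the Dlx6 window overlaps that of Dlx6os2. Both directions held with cyclic loess, at -1.66 for Dlx1 and 1.881 for Dlx6. Elmo1, which acts in cell migration (0.77), and the zinc finger factor gene St18 (0.58) were also higher, St18 with overlapping libraries. The fifth of those called higher was Nkx2-1, the factor that patterns the medial ganglionic eminence itself, chosen after its values were seen. It averaged 15.9 ± 2.90 CPM in CeA and 11.1 ± 2.99 CPM in cortex, with overlapping libraries (log2 difference 0.53 ± 0.19; adjusted p = 0.0146), and was not called without CeA control library 1 (0.38; adjusted p = 0.181), CeA fear library 1, cortex control library 2 or cortex fear library 2. Lhx8, of forebrain cholinergic neurons, was not called (log2 difference -0.21 ± 0.26).

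Factors of striatal and amygdalar development went the other way: of 31 tested, 19 were higher and 3 lower in CeA (median log2 difference 0.54, or 0.69 with cyclic loess). Zfhx4, a zinc finger homeobox gene at chr3:5217554-5219553, had 60.5 and 57.8 CPM in fear and 57.8 and 46.9 CPM in control CeA libraries, against 9.59 and 5.62 CPM in fear and 8.13 and 4.54 CPM in control cortex libraries, with no overlap and every CeA library above 40 CPM (log2 difference 2.99 ± 0.17; adjusted p = 4.94e-66). Sp8 (2.32), a factor of lateral ganglionic eminence derivatives, Zfhx3 (2.02) and Ebf1 (1.94), which acts in striatal neuron differentiation, came next, with CeA means of 18.2, 42.1 and 29.5 CPM and cortex means of 3.62, 10.5 and 7.79 CPM. The members called lower were Nr2f1 (-0.76), Otp (-0.54) and Tshz1 (-0.44). Of these, Otp and Tshz1 had overlapping libraries, and Tshz1 was not called with cyclic loess. Without CeA control library 2, CeA fear library 2 or cortex control library 1, 1 was called lower.

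Genes that define cell classes of the CeA were divided. Of 27 tested, 10 were higher and 6 lower (median log2 difference 0.26), and 14 and 5 with total count scaling. Penk, Nts and Oprk1 were among those higher. Htr2a, the serotonin 2A receptor (-1.60), Npy, the sodium channel subunit Scn4b (-0.85) and the Wnt agonist Rspo2 (-0.84) were lower. Prkcd, the kinase of a CeA class held to be separate from the somatostatin class, had 26.1 and 19.8 CPM in fear and 23.3 and 17.3 CPM in control CeA libraries, against 18.8 and 19.2 CPM in fear and 16.8 and 18.6 CPM in control cortex libraries. The libraries overlapped and it was not called (log2 difference 0.25 ± 0.17; 95% interval -0.081 to 0.59; adjusted p = 0.21), although it was without CeA control library 2 (0.43; adjusted p = 0.0451) and with total count scaling (0.47; adjusted p = 0.0248). Wfs1, of the endoplasmic reticulum, was the strongest of those not called (log2 difference -0.21 ± 0.15).

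Genes of somatostatin cell subtypes gave 8 higher and 8 lower of 25 (median log2 difference 0.096, or -0.042 with cyclic loess). Long-range projecting cortical somatostatin cells are known by Chodl, Nos1 and Npy together, and the 3 genes did not move together here. Chodl (chr16:78930193-78932192) had 13.9 and 17.3 CPM in fear and 12.8 and 16.2 CPM in control CeA libraries, against 7.49 and 3.55 CPM in fear and 5.92 and 4.76 CPM in control cortex libraries, higher in all 4 CeA libraries (log2 difference 1.43 ± 0.22). Npy was lower, as given above, and Nos1, of nitric oxide synthesis, had 8.75 and 12.9 CPM in fear and 9.28 and 5.24 CPM in control CeA libraries, against 10.8 and 9.17 CPM in fear and 10.1 and 11.8 CPM in control cortex libraries. It overlapped between the regions and was not called (log2 difference -0.23 ± 0.22; 95% interval -0.65 to 0.20). The other members with large differences were lower in CeA: Crhbp, a binding protein that limits corticotropin-releasing hormone (13.7 ± 1.17 CPM in CeA and 50.4 ± 2.11 CPM in cortex; log2 difference -1.88 ± 0.16), the phosphatase Ptpru (-1.25) and Elfn1, a synaptic protein of somatostatin interneurons (-1.14). Chrna2, a nicotinic receptor subunit of one cortical somatostatin subtype, was higher (0.89; adjusted p = 0.000267), and Etv1 was not called (log2 difference 0.29 ± 0.16).

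Markers of other interneuron classes numbered 24, of which 7 were higher and 10 lower (median log2 difference -0.022). With total count scaling 8 were higher and 7 lower (median 0.20). Pvalb, of fast-spiking interneurons, was lower (6.37 ± 2.90 CPM in CeA and 22.7 ± 1.86 CPM in cortex; log2 difference -1.85 ± 0.21), as were Nxph1 (-1.19) and Syt2 (-1.11), which such cells share. Lamp5 (68.6 ± 11.1 CPM in CeA and 34.2 ± 1.98 CPM in cortex; log2 difference 1.01 ± 0.15) and Sncg (0.80), of other cortical classes, were higher, the second with overlapping libraries and without a call under cyclic loess (adjusted p = 0.0544). Prox1, of interneurons from the caudal eminence, was not called (log2 difference 0.16 ± 0.19).

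The largest differences of all, taken over promoters with at least 20 CPM in the higher region and no overlap, included genes of several kinds. Spink8, a protease inhibitor gene at chr9:109718141-109720140, led those higher in CeA with 43.8 and 48.0 CPM in fear and 53.4 and 47.5 CPM in control CeA libraries, against 6.10 and 2.98 CPM in fear and 4.52 and 4.65 CPM in control cortex libraries. The groups stand about an order of magnitude apart (log2 difference 3.37 ± 0.18; adjusted p = 6.87e-73). Slco5a1, of an organic anion transporter family (chr1:12980217-12982216), had 102 and 100.2 CPM in fear and 114 and 103 CPM in control CeA libraries, against 15.0 and 11.6 CPM in fear and 12.1 and 12.8 CPM in control cortex libraries. Each CeA library exceeded every cortex library several times over (log2 difference 3.02 ± 0.16). Ptprd, a receptor phosphatase that organizes synapses (chr4:77856800-77858799), had 170.4 and 112 CPM in fear and 169 and 107 CPM in control CeA libraries, against 25.4 and 15.0 CPM in fear and 18.97 and 16.01 CPM in control cortex libraries, with no overlap (log2 difference 2.89 ± 0.16). The remaining promoters of this kind were Retn, of the hormone resistin (3.34), Ddc, of the enzyme that completes dopamine and serotonin synthesis (3.18), Zfhx4, Pifo, of the primary cilium (2.65), Crym, of a thyroid hormone binding protein (2.64), P2ry1, of an ADP receptor (2.60), Penk, Pkp2, of a junction protein (2.48), and Htr2c. The Crym window overlaps that of Abca14.

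On the lower side, Col19a1 led. This collagen gene (chr1:24593277-24595276) had 5.89 and 3.77 CPM in fear and 9.28 and 6.55 CPM in control CeA libraries, against 51.5 and 52.3 CPM in fear and 54.2 and 45.1 CPM in control cortex libraries, all 4 CeA libraries far below the cortex ones (log2 difference -2.98 ± 0.18; adjusted p = 1.33e-55). Trim67, of a ubiquitin ligase family member (chr8:127315919-127317918), had the strongest cortex promoter of the 12, with 35.7 and 29.5 CPM in fear and 28.2 and 24.9 CPM in control CeA libraries, against 147 and 157 CPM in fear and 147 and 141 CPM in control cortex libraries. The regions did not overlap there either (log2 difference -2.32 ± 0.16). The others were Cort, Nupr1, a stress-induced nuclear protein (-2.67), Slc30a3, the zinc transporter of synaptic vesicles (-2.60), Ntn4, a netrin (-2.52), Dlx1as, antisense to Dlx1 (-2.45), Oprd1, Zbtb7b (-2.33), whose window overlaps that of Gm15417, Phactr4 (-2.33), Sept9, a septin (-2.32), and Mypn, a myopalladin gene (-2.31). Over all 24 promoters the weakest call had an adjusted p of 1.49e-31, at Crym.

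The machinery of GABA transmission was not uniform. The sort selects GABAergic neurons in both regions, and Gad1 and Slc32a1, which make GABA and load it into vesicles, were not called. Gad1 (chr2:70399186-70401185) had 82.5 and 69.7 CPM in fear and 89.7 and 79.7 CPM in control CeA libraries, against 83.7 and 87.9 CPM in fear and 82.9 and 85.2 CPM in control cortex libraries, with overlap (log2 difference -0.077 ± 0.15; 95% interval -0.37 to 0.22). The sign of this difference turns with cyclic loess (0.20) and with total count scaling (0.14). Slc32a1 had 85.5 and 84.5 CPM in fear and 87.9 and 89.7 CPM in control CeA libraries, against 84.2 and 97.8 CPM in fear and 100.5 and 91.3 CPM in control cortex libraries, also with overlap (log2 difference -0.10 ± 0.15; 95% interval -0.40 to 0.20). Its sign turns in the same way (0.18 and 0.12). Both windows overlap those of other transcripts, Gad1os and Gm14204. The second synthetic enzyme, Gad2, had 62.5 and 63.4 CPM in fear and 58.5 and 55.3 CPM in control CeA libraries, against 39.5 and 32.9 CPM in fear and 36.6 and 33.2 CPM in control cortex libraries. It was the member called higher (log2 difference 0.75 ± 0.15; adjusted p = 2.51e-06). Slc6a11, an uptake transporter (-1.53), was lower, and Gphn, the scaffold of inhibitory synapses, was lower by less (-0.58). In all 1 of 11 was higher and 3 were lower (median log2 difference -0.057). But 3 were higher and 3 lower with cyclic loess (median 0.18) and with total count scaling (median 0.17), and 2 were higher without cortex control library 2.

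GABA-A receptor subunit genes had the highest median of the receptor lists: 10 of 19 were higher and 1 lower (median log2 difference 0.72, or 0.52 with cyclic loess). Gabra5, of extrasynaptic receptors, averaged 41.6 ± 8.55 CPM in CeA and 17.3 ± 2.61 CPM in cortex (log2 difference 1.28 ± 0.16), and Gabrr2 23.8 ± 2.03 CPM in CeA and 10.5 ± 1.32 CPM in cortex (log2 difference 1.19 ± 0.18). Gabrq, on chromosome X, differed by 1.53, and Gabra6, a weak promoter at 3.70 CPM in CeA and 1.77 CPM in cortex, by 1.07, which was not called with cyclic loess (adjusted p = 0.523). Promoters of chromosome X as a whole had a median log2 difference of 0.70, so X-linked members are to be read against that value. Gabrd, of a subunit of tonic inhibition, was the exception (log2 difference -0.60 ± 0.16), and Gabrb1 was not called (log2 difference 0.044 ± 0.15).

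Among ionotropic glutamate receptor subunits, 6 of 26 were higher and 11 lower (median log2 difference -0.12, or 0.073 with cyclic loess), and 9 higher and 10 lower with either other scaling. Grin2d, an NMDA receptor subunit of interneurons, was lower (15.5 ± 1.76 CPM in CeA and 56.0 ± 5.00 CPM in cortex; log2 difference -1.85 ± 0.16), together with the kainate receptor subunits Grik3 (-1.43), Grik1 (-1.16) and Grik4 (-0.89). Grik2 (0.90), Gria1 (0.58), Gria3 (0.52, X-linked) and Grin2b (0.50) were higher. Kainate subunits thus stood on both sides. The Gria3 difference was below the X median over all levels. It was above the X medians from 20 to 50 CPM (0.46) and at 50 CPM and above (0.40). Of 14 metabotropic glutamate and GABA-B receptor genes, 5 were higher and 2 lower (median log2 difference 0.17), and 8 higher and 1 lower with total count scaling. Without CeA control library 2, cortex control library 1 or 2 or cortex fear library 2, 1 was called lower. Grm8 (0.72), Gabbr1 (0.63) and the auxiliary subunit Kctd12b (2.00, X-linked) were higher, Kctd8, another auxiliary subunit (-1.14), and Grm4 (-0.56, not called with DESeq2 or total count scaling) were lower, and Gabbr2 was not called (log2 difference 0.10 ± 0.15).

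Serotonin receptor genes numbered 14, with 4 higher and 4 lower in CeA (median log2 difference 0.15), 4 and 2 with cyclic loess and 5 and 2 with total count scaling. Without CeA control library 2, CeA fear library 2, cortex control library 2 or cortex fear library 2, 2 were called lower. Htr2c, a Gq-coupled receptor gene on chromosome X (chrX:143396056-143398055), had 40.9 and 29.5 CPM in fear and 37.2 and 40.4 CPM in control CeA libraries, against 9.16 and 6.53 CPM in fear and 6.42 and 5.30 CPM in control cortex libraries. The regions did not overlap and the difference was well above the X median (log2 difference 2.44 ± 0.18; adjusted p = 2.61e-39). Htr1b, a presynaptic inhibitory receptor, averaged 45.5 ± 12.0 CPM in CeA and 15.98 ± 2.77 CPM in cortex (log2 difference 1.51 ± 0.16), in a window shared with D430036J16Rik. Htr4 averaged 24.99 ± 4.42 CPM in CeA and 10.4 ± 3.73 CPM in cortex (log2 difference 1.27 ± 0.18), and Htr5b was higher by 0.69. Htr2a (-1.60), Htr6 (-0.88) and Htr1a (-0.43) were lower, the last without a call under cyclic loess (adjusted p = 0.205), and Htr2b was not called (log2 difference -0.032 ± 0.16). The Gq-coupled 2A and 2C receptor genes therefore lay on opposite sides.

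Of 26 dopamine, adrenergic and acetylcholine receptor genes, 7 were higher and 7 lower (median log2 difference 0.091), and 10 and 5 with total count scaling. Chrm3, a muscarinic receptor, was lower at 15.7 ± 0.548 CPM in CeA and 64.6 ± 4.48 CPM in cortex (log2 difference -2.03 ± 0.16), followed by the nicotinic subunit Chrna4 (-1.40), the adrenergic receptor Adra1d (-1.36) and Chrm4 (-0.78). Chrm1 was higher (25.9 ± 3.18 CPM in CeA and 12.6 ± 0.846 CPM in cortex; log2 difference 1.04 ± 0.18) in a window shared with 9830166K06Rik, and Drd3 was a weak promoter with overlapping libraries (0.83) that was not called with cyclic loess (adjusted p = 0.306). Adrb1 was not called (log2 difference -0.23 ± 0.15). Genes of dopamine signalling in striatal neurons gave 10 higher and 4 lower of 23 (median log2 difference 0.27). Arpp21, of a phosphoprotein regulated by cAMP, averaged 54.9 ± 4.79 CPM in CeA and 14.0 ± 1.27 CPM in cortex (log2 difference 1.97 ± 0.16), and Dclk3, a kinase of the doublecortin family, 36.7 ± 2.89 CPM in CeA and 11.7 ± 0.982 CPM in cortex (log2 difference 1.64 ± 0.17), beside Penk. Drd1, the D1 dopamine receptor, was lower (-0.72), as were Rasgrp2 (-0.90), the G protein subunit gene Gng7 (-0.86) and the phosphodiesterase gene Pde10a (-0.58), and Strn was not called (log2 difference -0.0063 ± 0.15).

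Ion channel genes were called in both directions. Voltage-gated potassium channel genes, listed together with calcium-activated ones such as Kcnn1 and Kcnn2, gave 15 higher and 15 lower of 48 (median log2 difference 0.035). But they gave 20 higher and 10 lower with cyclic loess (median 0.24) and 21 higher and 10 lower with total count scaling (median 0.25). Kcna5 was higher at 36.3 ± 1.87 CPM in CeA and 9.61 ± 2.72 CPM in cortex (log2 difference 1.92 ± 0.17), as were the auxiliary subunit Kcnip4 (1.56) and Kcnb2 (1.36). Kcns3, a silent subunit of fast-spiking cells, was lower at 12.8 ± 3.32 CPM in CeA and 46.4 ± 3.94 CPM in cortex (log2 difference -1.88 ± 0.17), as were Kcnn1 (-1.10) and Kcnip1 (-1.09), and Kcnn2 was not called (log2 difference 0.35 ± 0.16). Inward rectifier, leak and HCN channel genes gave 5 higher and 14 lower of 28 (median log2 difference -0.41, or -0.26 with cyclic loess), and 9 higher and 11 lower with total count scaling. Kcnk12 (-1.41), Kcnk1 (-1.37) and the pacemaker channel gene Hcn4 (37.2 ± 5.79 CPM in CeA and 85.4 ± 8.97 CPM in cortex; log2 difference -1.20 ± 0.15) were lower, Kcnj2 (0.97) was higher, and Kcnk10 was not called (log2 difference -0.15 ± 0.15).

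Sodium, calcium and TRP channel genes gave 9 higher and 13 lower of 31 (median log2 difference -0.23, or 0.043 with cyclic loess), and 11 higher and 10 lower with either other scaling. Cacna2d1, the alpha2delta subunit that binds gabapentin (chr5:15439509-15441508), had 91.8 and 57.5 CPM in fear and 83.0 and 60.0 CPM in control CeA libraries, against 25.4 and 13.1 CPM in fear and 24.0 and 10.3 CPM in control cortex libraries. All CeA libraries were above all cortex libraries (log2 difference 2.01 ± 0.15), and within each region the libraries labelled male were the higher ones. Scn9a was also higher (49.4 ± 4.96 CPM in CeA and 15.8 ± 3.68 CPM in cortex; log2 difference 1.64 ± 0.16). Scn1a, the sodium channel of fast-spiking interneurons, was lower (23.4 ± 0.550 CPM in CeA and 43.5 ± 2.04 CPM in cortex; log2 difference -0.89 ± 0.15) in a window shared with Gm13629, as were Trpc6 (-1.50) and Cacna1i, of a low-threshold calcium channel (-1.02), and Cacna1b was not called (log2 difference 0.030 ± 0.15).

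Genes of axon guidance gave 13 higher and 19 lower of 61 (median log2 difference -0.068), but 16 higher and 14 lower with cyclic loess (median 0.11) and 17 higher and 15 lower with total count scaling. Ephrin receptor genes stood on both sides. Ephb1 (chr9:102256024-102258023) had 129 and 116 CPM in fear and 116 and 123 CPM in control CeA libraries, against 43.0 and 30.6 CPM in fear and 27.5 and 33.0 CPM in control cortex libraries, higher in every CeA library (log2 difference 1.86 ± 0.15). Ephb3 (chr16:21203868-21205867) had 12.9 and 19.5 CPM in fear and 15.2 and 24.6 CPM in control CeA libraries, against 76.2 and 90.9 CPM in fear and 80.8 and 94.2 CPM in control cortex libraries, lower in every CeA library (log2 difference -2.29 ± 0.16). The Slit receptors Robo1 (1.67) and Robo2 (1.42) and Sema5a (1.09) were higher, Ntn4, Sema7a (-1.23) and the netrin receptor gene Unc5a (-1.16) were lower, and Plxnc1 was not called (log2 difference -0.13 ± 0.16). Cadherins and synaptic organizers gave 18 higher and 21 lower of 60 (median log2 difference -0.002, or 0.21 with cyclic loess), and 23 higher and 16 lower with total count scaling. Beside Ptprd, the higher ones were led by Slitrk6 (1.71), Slitrk2 (1.39, X-linked) and Slitrk1 (1.37), and the lower ones by Cdh13 (-1.47) and Cdh11 (-1.31), with Flrt3 not called (log2 difference -0.22 ± 0.16). Clustered protocadherins, which give neurons a surface identity, gave 29 higher and 6 lower of 59 (median log2 difference 0.42, or 0.51 with cyclic loess), and 36 and 2 with cyclic loess and 38 and 2 with total count scaling. Without CeA control library 2, cortex control library 2 or cortex fear library 2, 2 were called lower. By cluster, 10 of 14 were higher in Pcdha, 3 of 22 in Pcdhb and 15 of 22 in Pcdhg, with 1, 3 and 2 lower. Collagen and laminin genes gave 7 higher and 7 lower of 37 (median log2 difference -0.021), beside 21.1% and 27.1% of all promoters. They gave 4 and 7 with cyclic loess and 10 and 6 with total count scaling (median 0.21). The count of higher ones was 3 without CeA control library 1 and 4 without cortex control library 2 or cortex fear library 2. They were led on the lower side by Col19a1 and Lama4 (-2.06) and on the higher by Col1a2 (1.15), which was not called with cyclic loess (adjusted p = 0.0787), and Col4a1 was not called (log2 difference 0.026 ± 0.15).

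Not called refers to TMM scaling throughout. With cyclic loess, Etv1, Cacna1b, Gabbr2, Kcnn2, Ncoa1, Homer1, Tle4, Commd1 and Hdac4, the last 5 described below, were called higher in CeA.

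**Figure D3:**
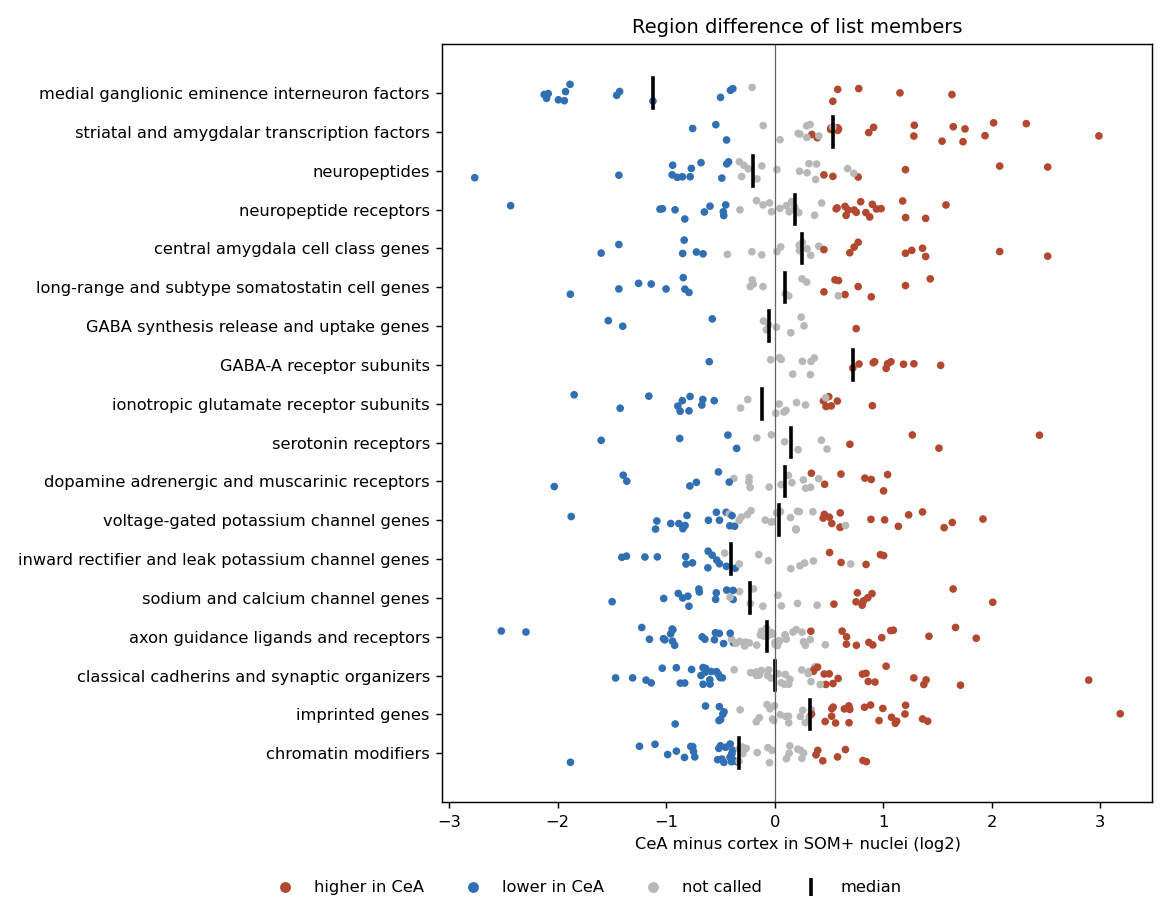
Log2 difference between CeA and cortex SOM+ nuclei (x axis) for each tested promoter of 18 gene lists (rows); red points were called higher in CeA, blue points lower, grey points not called, and the black bar is the median of the list. Factors of medial ganglionic eminence interneurons lie furthest to the left (median -1.12), GABA-A receptor subunits (0.72) and striatal and amygdalar factors (0.54) furthest to the right, and most other lists hold points on both sides.

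Erbb4, the neuregulin receptor of interneurons, was near the threshold. It had 20.9 and 20.7 CPM in fear and 15.7 and 15.5 CPM in control CeA libraries, against 25.4 and 25.3 CPM in fear and 22.3 and 22.8 CPM in control cortex libraries (chr1:69153634-69155633). The 4 CeA libraries lay below the 4 cortex libraries and it was called lower (log2 difference -0.41 ± 0.17; adjusted p = 0.0364), but not with cyclic loess (adjusted p = 0.219) or DESeq2 (adjusted p = 0.0752), and without any one of the 8 libraries the adjusted p lay between 0.0577 and 0.171. Among 15 genes of ErbB receptors and ligands, 3 were higher and 4 lower (median log2 difference 0.11, or -0.075 with cyclic loess), 3 and 2 with cyclic loess and 4 and 2 with total count scaling. Without CeA control library 1 or CeA fear library 1, 1 was higher, and without cortex control library 2, 2 were lower. Hbegf was the ligand gene with the largest difference (34.5 ± 7.04 CPM in CeA and 73.4 ± 7.28 CPM in cortex; log2 difference -1.08 ± 0.15), Nrg1 was higher (log2 difference 0.67 ± 0.17) with overlapping libraries, and Egf was not called (log2 difference -0.13 ± 0.15). Neurotrophin and receptor genes gave 5 higher and 6 lower of 13 (median log2 difference -0.41), with the low-affinity receptor gene Ngfr (-1.02) and Bdnf (-0.87) lower, Gdnf (0.61) and Ntrk3 (0.50) higher, and Gfra2 not called (log2 difference -0.13 ± 0.18). At Bdnf the libraries overlapped, and this was the strongest of its start sites. Of this list 5 were higher and 4 lower with total count scaling, 2 higher without CeA control library 1, and 3 higher without CeA fear library 1, cortex control library 2 or cortex fear library 2.

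Genes of the glucocorticoid and stress response gave 2 higher and 9 lower of 20 (median log2 difference -0.39, or -0.22 with cyclic loess), and 4 higher and 7 lower with either other scaling. Crhbp was the most different, and Fkbp5, a chaperone that restrains the glucocorticoid receptor, averaged 57.0 ± 10.2 CPM in CeA and 121 ± 4.37 CPM in cortex (log2 difference -1.08 ± 0.16). Stat5b was lower as well (log2 difference -1.35 ± 0.15), Crh was higher, and Ncoa1 was not called (log2 difference 0.19 ± 0.15). Immediate early and activity-induced genes gave 7 higher and 15 lower of 35 (median log2 difference -0.23), but 13 higher and 10 lower with cyclic loess (median 0.041) and 13 and 13 with total count scaling. Ier2 (14.9 ± 1.92 CPM in CeA and 58.6 ± 4.29 CPM in cortex; log2 difference -1.98 ± 0.16), Dusp1 (-0.91) and Gadd45b (-0.90) were lower. Rgs2 (121 ± 10.1 CPM in CeA and 58.8 ± 10.98 CPM in cortex; log2 difference 1.04 ± 0.15), Egr3 (0.88) and Crem (0.70) were higher. All 6 kept the same call with cyclic loess. Homer1 was not called (log2 difference -0.018 ± 0.17). The stress and immediate early lists had median levels of 63.8 and 71.5 CPM. From 50 to 100 CPM, 827 of all 5438 promoters tested were higher and 2536 lower.

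Markers of other cells were called in both directions, beside 21.1% of all promoters called higher and 27.1% called lower. With TMM the oligodendrocyte, microglial and vascular counts below did not exceed these shares. Of 27 factors of glutamatergic neurons, 7 were higher and 9 lower (median log2 difference -0.23), but 9 and 7 with cyclic loess and 9 and 6 with total count scaling. The count of lower ones was 5 without CeA fear library 1 or cortex control library 1. Neurod6 averaged 5.20 ± 2.03 CPM in CeA and 10.1 ± 3.81 CPM in cortex (log2 difference -1.004 ± 0.25). Tbr1, another factor of these cells that was chosen after its values were seen, averaged 17.5 ± 2.26 CPM in CeA and 20.8 ± 3.85 CPM in cortex without a call (log2 difference -0.23 ± 0.17), near the median of 20.4 CPM over all promoters. Slc30a3 and Cux2 (26.9 ± 2.70 CPM in CeA and 96.2 ± 5.51 CPM in cortex; log2 difference -1.83 ± 0.16), named for glutamatergic cells and upper cortical layers, were open in cortex SOM+ nuclei. Emx1 was lower in CeA (-1.05), Nrgn (1.52) and Mef2c (1.598) were higher, and Tle4 was not called (log2 difference 0.32 ± 0.16). Scaled over all 18 libraries, as are the sums that follow, glutamatergic genes summed to 717 to 879.8 CPM in CeA and 858 to 1016 CPM in cortex SOM+ libraries. Astrocyte genes gave 3 higher and 6 lower of 17 and summed to 278 to 316 CPM in CeA and 373 to 399 CPM in cortex SOM+ libraries. Oligodendrocyte genes gave 4 higher and 3 lower of 20, at 236.5 to 257 CPM in CeA and 243 to 258.5 CPM in cortex libraries. Microglial genes gave 2 higher and 2 lower of 18, at 146 to 193 CPM in CeA and 165 to 174 CPM in cortex libraries, and vascular genes 4 higher and 4 lower of 21, at 158 to 208 CPM in CeA and 190.6 to 204 CPM in cortex libraries. Genes common to neurons gave 2 higher and 4 lower of 12, but 4 higher and 2 lower with either other scaling. With cyclic loess the higher and lower counts were 3 and 3 for astrocyte, 3 and 4 for oligodendrocyte and 1 and 2 for microglial genes. With total count scaling they were 5 and 4 for astrocyte, 6 and 1 for oligodendrocyte, 2 and 0 for microglial and 6 and 2 for vascular genes. Single libraries moved these small counts too. Oligodendrocyte genes gave 7 higher without cortex control library 1, 2 higher and 1 lower without cortex control library 2, and 1 lower without CeA control library 2 or CeA fear library 1. Vascular genes gave 7 higher without CeA fear library 1, 2 higher without cortex control library 1, and 2 lower without CeA control library 1, cortex control library 2 or cortex fear library 2. Microglial genes lay between 0 and 2 in each direction, and the omission of any of the 8 libraries moved one of the counts. Genes common to neurons gave 2 lower without cortex control library 1. No list was at 0, and their part in the differences above was not tested.

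Imprinted genes, expressed from one parental copy, gave 22 higher and 7 lower of 46 (median log2 difference 0.33, or 0.45 with cyclic loess), 24 and 3 with cyclic loess and 25 and 4 with total count scaling. The count of lower ones was 4 without cortex control library 1. Beside Ddc, which is imprinted in some tissues, Magel2 (34.2 ± 4.31 CPM in CeA and 12.8 ± 1.31 CPM in cortex; log2 difference 1.41 ± 0.17), Nespas (1.36) and Calcr were the most different, and Inpp5f (-0.92) and Trappc9 (-0.64) were lower, with Commd1 not called (log2 difference 0.049 ± 0.15). Chromatin modifiers gave 7 higher and 24 lower of 49 (median log2 difference -0.33), but 13 higher and 10 lower with cyclic loess (median -0.10) and 13 and 12 with total count scaling. There were 13 lower without cortex control library 1, 15 lower without cortex fear library 2, and 4 higher without CeA control library 1. Hdac1, a histone deacetylase, was lower under both (24.0 ± 2.10 CPM in CeA and 88.3 ± 15.7 CPM in cortex; log2 difference -1.88 ± 0.16), as was the acetyltransferase Ep300 (log2 difference -1.25 ± 0.16), and Kdm6a, an X-linked demethylase, was higher (0.81), with Hdac4 not called (log2 difference -0.049 ± 0.16). Ribosomal protein promoters gave 16 higher and 32 lower of 85, or 25 higher and 21 lower with cyclic loess and 24 and 25 with total count scaling. Chromatin modifiers and ribosomal protein promoters had median levels of 73.7 and 69.5 CPM. From 50 to 100 CPM, 827 of all 5438 promoters tested were higher and 2536 lower. Hox promoters gave 11 higher and 0 lower of 39 (median log2 difference 0.47), but 4 and 0 with cyclic loess (median -0.029). They gave 5 or 6 higher without CeA control library 1, cortex control library 2 or cortex fear library 1. Olfactory receptor promoters, closed in these cells, gave 312 higher and 3 lower of 1084, but 25 higher and 41 lower with cyclic loess. There were 177 to 193 higher without CeA control library 1, CeA fear library 2, cortex control library 2 or either cortex fear library, with 6 lower without CeA fear library 2. For Y-linked genes, whose reads follow the labelled sex, single libraries decided the count. Of 5 tested, 5 were called higher, 1 with total count scaling and none with cyclic loess. None was called higher without CeA fear library 1, none higher and 3 lower without CeA control library 1, and 3 higher without CeA fear library 2, cortex control library 2 or cortex fear library 2.

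The region difference was large in fear-conditioned and in control mice alike. It was called at 7330 promoters (29.1%) between fear-conditioned CeA and cortex libraries and at 8026 (31.9%) between control ones, and the sets of libraries do not share any sample. Of these, 5860 were called in both, all with the same sign, which is 79.9% of the calls in fear-conditioned and 73.0% of those in control mice. In 99.2% of the fear calls the control difference had the same sign, and the differences correlated at r = 0.82 over promoters, which share library depth and are not independent. At Penk the log2 difference was 2.40 ± 0.25 in fear-conditioned and 2.63 ± 0.25 in control mice, at Cort -2.81 ± 0.24 and -2.72 ± 0.23, and at Lhx6 -2.15 ± 0.23 and -2.06 ± 0.22. As lists, factors of medial ganglionic eminence interneurons gave 3 higher and 10 lower in fear-conditioned mice and 4 higher and 10 lower in control mice. Striatal and amygdalar factors gave 13 higher and 1 lower in fear-conditioned and 14 higher and 2 lower in control mice, and GABA-A receptor subunits 9 higher and 0 lower in fear-conditioned and 8 higher and 1 lower in control mice. Peptide receptors gave 8 higher and 6 lower in fear-conditioned and 16 higher and 6 lower in control mice, a difference in counts that was not itself tested. The interaction of region and treatment was called at 0 promoters (0%; 371 had an unadjusted p under 0.05, and DESeq2 and limma also called 0).

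With 2 libraries per group, the promoters with the smallest interaction p are descriptions only. Dach1, a factor gene of forebrain development, had 20.5 and 15.7 CPM in fear and 27.0 and 27.8 CPM in control CeA libraries, against 9.08 and 5.96 CPM in fear and 5.32 and 4.11 CPM in control cortex libraries. Both CeA control libraries were above both CeA fear libraries, and the log2 difference was 1.26 ± 0.28 in fear-conditioned and 2.53 ± 0.28 in control mice (unadjusted p = 0.00135, adjusted p = 1). Ddc had 25.2 and 27.9 CPM in fear and 31.9 and 29.4 CPM in control CeA libraries, against 5.30 and 3.67 CPM in fear and 1.91 and 2.38 CPM in control cortex libraries. The cortex fear libraries were the higher cortex ones, and the log2 difference was 2.53 ± 0.28 in fear-conditioned and 3.83 ± 0.31 in control mice. Zp4-ps, a pseudogene, had 17.3 and 16.01 CPM in fear and 9.52 and 9.96 CPM in control CeA libraries, against 5.09 and 6.30 CPM in fear and 9.13 and 8.22 CPM in control cortex libraries. The log2 difference was 1.56 ± 0.31 in fear-conditioned and 0.16 ± 0.31 in control mice, and the interaction was again not called (unadjusted p = 0.00116, adjusted p = 1). The others were Cdh17, Cxcl14 and Mxra8, whose means were at most 10.8 CPM in CeA and 9.18 CPM in cortex. Their log2 differences in fear-conditioned mice were -0.16 ± 0.60, -0.22 ± 0.41 and 0.77 ± 0.31, against 2.57 ± 0.62, 1.62 ± 0.39 and -0.53 ± 0.32 in control mice.

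**Figure D4:**
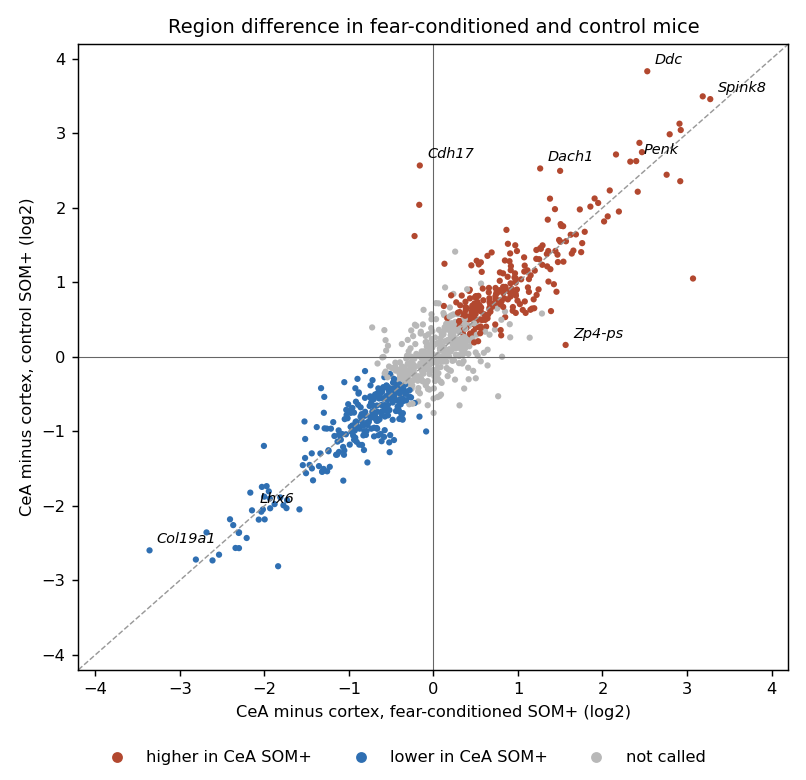
Log2 difference between CeA and cortex SOM+ nuclei in fear-conditioned mice (x axis) and in control mice (y axis) for the promoters of the gene lists and the other named genes; colours give the call over both treatments (red higher, blue lower, grey not called), and the dashed line is equality. Points called in either direction lie along the line, Penk at 2.40 and 2.63 among them, and Cdh17, Dach1 and Zp4-ps stand off it without an interaction that was called.

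In the bulk nuclei of the same regions, 2200 promoters (8.71%) were higher and 3295 (13.1%) lower in CeA than in cortex. These calls came from the joint fit of bulk and SOM+ libraries, which included the labelled sex. The SOM+ calls set beside them came from the fit of the SOM+ libraries alone. The counts of calls therefore differ in fit as well as in nuclei, and the part of the fit was not tested. Of 2367 promoters called higher by over 2-fold in CeA SOM+ nuclei, 242 were also called higher in bulk, 90 were called lower and 2035 were not called. Most of these promoters lay below 5 CPM, as given above. Of 1422 called lower by over 2-fold, 226 were also lower in bulk, 221 were higher and 975 were not called. The difference between the SOM+ and the bulk region difference was itself called at 4451 promoters (17.6%) towards CeA and at 6019 (23.8%) towards cortex, among them 1404 of the 2367 and 1306 of the 1422. The bulk libraries come from other mice, so that gate and line cannot be told apart in this contrast, and 6 of the 10 carry the Erbb4 knockout. With the wild-type bulk libraries alone, 2 per region, an alternative chosen after seeing the data, 3108 promoters were called towards CeA and 4762 towards cortex, and 7673 of these 7870 were also called with all 10, with the same sign.

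Some GABAergic genes were called in one sort and not in the other. Gad1 and Slc32a1, not called in SOM+ nuclei, were higher in CeA bulk nuclei (log2 differences 1.45 ± 0.14 and 1.82 ± 0.15), as was Gad2 (log2 difference 1.49 ± 0.14). Other genes changed direction. The neural progenitor factor gene Sox1 was lower in CeA SOM+ and higher in CeA bulk nuclei (-1.32 in SOM+ and 1.25 in bulk nuclei), and so were Bahcc1 (-1.92 and 0.56) and Timp2, an inhibitor of matrix proteases (-1.82 and 0.63). Cacna2d1 was the reverse, higher in CeA SOM+ and lower in CeA bulk nuclei (2.01 and -0.63).

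Other promoters differed between regions in the sorted nuclei alone or in both sorts. Cort, with a log2 difference of -2.77 in SOM+ nuclei, averaged 12.3 ± 3.02 CPM in CeA bulk and 10.3 ± 1.59 CPM in cortex bulk nuclei and was not called there (difference of the differences -3.11 ± 0.24, adjusted p = 8.85e-12). Lhx6 (19.3 ± 7.23 CPM in CeA bulk and 21.4 ± 5.00 CPM in cortex bulk nuclei) and Oprd1 (14.2 ± 3.49 CPM in CeA bulk and 17.1 ± 5.75 CPM in cortex bulk nuclei) were also not called in bulk nuclei, and their differences of the differences were -2.10 ± 0.23 and -2.25 ± 0.27. Zfhx4 averaged 41.2 ± 7.74 CPM in CeA bulk and 36.1 ± 8.82 CPM in cortex bulk nuclei and was not called there, with a difference of the differences of 2.78 ± 0.25. Dlx6 was higher in CeA in both sorts and by a similar factor (1.63 in SOM+ and 1.93 in bulk nuclei), and the difference of the differences was not called (-0.36 ± 0.20; adjusted p = 0.154). Ddc and Penk were higher in CeA in both (2.29 and 0.96 in bulk) and by more in SOM+ nuclei (0.85 ± 0.28 and 1.51 ± 0.25). Prkcd was called higher in CeA bulk (22.2 ± 2.44 CPM in CeA bulk and 12.3 ± 2.32 CPM in cortex bulk nuclei; log2 difference 0.83 ± 0.18), which are not gated on somatostatin, and not in SOM+ nuclei. The difference of the differences was -0.63 ± 0.26 (adjusted p = 0.0433). Sst, too, was called higher in CeA bulk (log2 difference 0.67 ± 0.22), and the difference of the differences was not called (-0.49 ± 0.32; adjusted p = 0.214). Of the lists, factors of medial ganglionic eminence interneurons gave 4 higher and 5 lower of 19 in bulk nuclei (median log2 difference -0.046), GABA-A receptor subunits 3 higher and 4 lower of 19 (0.036) and peptide receptors 3 higher and 9 lower of 41 (-0.21). Clustered protocadherins gave 21 higher and 0 lower of 59 in bulk nuclei (median 0.53), and genes of striatal dopamine signalling 11 higher and 3 lower of 23 (0.39).

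**Figure D5:**
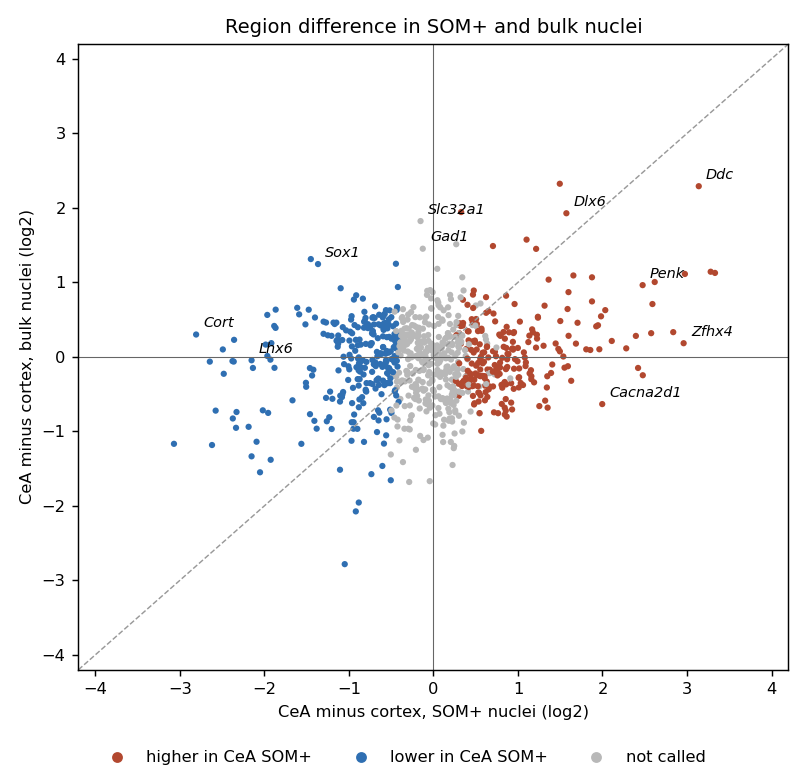
Log2 difference between CeA and cortex in SOM+ nuclei (x axis) and in bulk nuclei (y axis) for the promoters of the gene lists and the other named genes, both from the 18-library fit; colours give the call in SOM+ nuclei (red higher in CeA, blue lower, grey not called), and the dashed line is equality. Sox1 lies in the upper left, Cacna2d1 in the lower right, Gad1 and Slc32a1 on the upper axis, and Cort, Lhx6 and Zfhx4 near a bulk difference of 0.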

How the data were processed

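Reads per promoter window were raw counts deposited by the authors, 1 column for each of 18 ATAC-seq libraries in 8 groups. The submitters' processing notes name Bowtie2, MACS2, Picard 1.88, Trimmomatic 0.32 and bcl2fastq 2.16.0.10, and the build mm9. How the reads were counted, shifted for the Tn5 cut or cleared of duplicates, and whether by strand, is not stated there or in the labels, so reads of overlapping or antisense windows cannot be separated. Of 26728 windows, 663 repeated entries were dropped. In the remaining 26065, 24630 spanned 2000 bases, 1435 were wider, and 17.1% overlapped a window of another gene. A gene with several windows is represented by the one with the highest mean count.

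From these counts, edgeR 4.0.16 (R 4.3.3) computed TMM-scaled CPM and quasi-likelihood tests with Benjamini-Hochberg adjustment at 0.05, after its filter on low counts (minimum count 10, minimum total 15). CeA minus cortex was the mean of the contrasts within fear and within control in a fit of 4 group means over the 8 SOM+ libraries. With 4 residual degrees of freedom the spread of single promoters was taken wholly from the trend over promoters, so the adjusted p-values are very small and are to be read beside the per-library values. Bulk and SOM+ nuclei were compared in an 18-library fit of 25246 promoters with 8 group means and the labelled sex. SDs are over libraries. Intervals are 95% and not adjusted. On simulated data for CeA minus cortex over 25157 promoters, 72% of 100 promoters changed 2-fold and 97% of 100 changed 4-fold were recovered, with 8 of 24865 unchanged promoters called. The simulated spread was that of the trend, and unchanged promoters had the same level in both regions. The simulation therefore cannot show how many real calls come from a promoter's own spread or from the trend with level.

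The 33 gene lists and the genes named were chosen with earlier results of these data known. Named were up to 12 promoters per direction with the largest difference among those called, without overlap and with at least 20 CPM in the higher region, up to 4 members per list and direction, the strongest members not called, a fixed set of markers, and the 6 smallest p-values of the interaction and of the SOM+ minus bulk contrast. Some genes this rule selects are not reported here. Replicate numbers, which follow the labelled sex in SOM+ libraries, were not taken to pair them (correlations of deviations -0.021 to 0.19). Alternatives were DESeq2 1.42.0, total count and cyclic loess scaling (limma 3.58.1), no filter, thinning to 2648959 reads, an additive model, the replicate block, the sex term and leaving out each library. Figures were drawn with matplotlib 3.10.9.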

Additional observations from a re-analysis of the deposited data

Results flagged for a closer look

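At Nts, the second fear-conditioned cortex library had 1.49 CPM, far below the other 3 cortex libraries. At Npy, the second control cortex library had 26.8 CPM, again far below the other 3. These were 2 of 66 groups of 4 libraries examined for a single distant value (Dixon's 95% critical value 0.829), where chance gives about 1 in 20, and neither touched the order of the regions at its gene.

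Of the 31 promoters given per library, 25 had a region difference in SOM+ nuclei that differed from that in bulk nuclei (edgeR quasi-likelihood test of the difference, adjusted over 25246 promoters), beside 17.6% of all promoters called towards CeA and 23.8% towards cortex. The genes were chosen in part for a large region difference in SOM+ nuclei and for a small p of this contrast, which favours such a count. The log2 difference in SOM+ minus that in bulk nuclei was positive at Zfhx4 (2.78), Cacna2d1 (2.63), Ptprd (2.50), Spink8 (2.20), Htr2c (2.11), Slco5a1 (1.86), Dach1 (1.76), Ephb1 (1.71), Penk (1.51), Chodl (1.51), Nts (1.41) and Ddc (0.85). It was negative at Cort (-3.11), Trim67 (-2.30), Oprd1 (-2.25), Dlx1 (-2.15), Lhx6 (-2.10), Sox6 (-1.98), Slc32a1 (-1.98), Col19a1 (-1.90), Gad1 (-1.58), Ephb3 (-1.38), Npy (-1.10), Gad2 (-0.78) and Prkcd (-0.63). Gate and line differ together between these sorts and cannot be told apart.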

How the results depend on the processing

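Under the alternatives listed in the processing, CeA minus cortex gave 5043 to 7911 promoters higher and 4943 to 7486 lower. Total count scaling gave the extremes 7911 higher and 4943 lower, and without any one library the counts were 4269 to 5456 higher and 5333 to 7323 lower. In fear-conditioned mice 3683 promoters were called without cortex fear library 2, within a range of 3683 to 7918 over all libraries left out. In control mice 4412 were called without CeA control library 1 and 4455 without cortex control library 2, within a range of 4412 to 9440. The lone library of a group is then assumed to vary like the others. The interaction stayed at 0 under each alternative but the omission of CeA control library 1, cortex control library 1 or cortex fear library 1, each with 3 calls (range 0 to 3). The contrast of SOM+ with bulk nuclei gave 8703 to 11248 calls without single libraries and 9982 without the sex term. An edgeR 4 variant of the test, chosen after seeing the data, gave 5552 higher and 6859 lower, and sex taken from Y-linked promoters, also chosen after seeing the data, 10189 for that contrast. With wild-type bulk libraries alone it gave 7870, and Gad2 was not called (-0.51; adjusted p = 0.134). The replicate block gave 5911 higher and 7486 lower with an additive model, and 8048 calls in fear-conditioned and 8857 in control mice. It changed none of the 168 named calls and added calls at Etv1, Kcnn2 and Tle4. The replicate number coincides with the labelled sex in SOM+ libraries, so that this block is also a sex term, and 3 of 6 pairs of same-numbered libraries had correlated deviations over 0.1, too few to count as pairing. The difference in the ribosomal to olfactory ratio was -36.6 to -29.8 without single libraries, chosen after seeing the data, and each exact p was 0.0571, the smallest that 35 arrangements allow. Of the 168 named promoters that were called, none changed sign under any alternative, and 162 kept the call with DESeq2, 163 with total count scaling, 159 with cyclic loess, 166 without the filter, 161 after thinning and 158 to 163 without single libraries. Cdh17, Col1a2, Cxcl14, Drd3, Erbb4, Gabra6, Gria3, Grin2b, Grm4, Htr1a, Neurod6, Nkx2-1, Otp, Sncg, St18 and Tshz1 lost the call without at least 1 library. Adrb1, Avp, Egf, Ermn, Etv1, Kcnn2, Ncoa1, Plxnc1, Prkcd, Sst and Tle4 gained one. At Gad2 the difference between SOM+ and bulk nuclei was not called with cyclic loess (-0.41; adjusted p = 0.0986). Promoters that were not called changed the sign of their log2 difference as follows: with total count scaling Egf 0.075, Flrt3 0.0030, Gad1 0.14, Gfra2 0.085, Hdac4 0.17, Homer1 0.20, Htr2b 0.18, Kcnk10 0.067, Lhx8 0.0016, Nos1 0.0014, Plxnc1 0.078, Slc32a1 0.12, Sstr2 0.16, Strn 0.21 and Wfs1 0.0074; with cyclic loess Adrb1 0.046, Egf 0.091, Flrt3 0.072, Gad1 0.20, Gfra2 0.018, Hdac4 0.25, Homer1 0.29, Htr2b 0.15, Kcnk10 0.13, Plxnc1 0.12, Slc32a1 0.18, Sstr2 0.17, Strn 0.27 and Wfs1 0.068; after thinning Gad1 0.070, Gfra2 0.025, Hdac4 0.16, Homer1 0.080, Htr2b 0.19, Kcnk10 0.013, Plxnc1 0.019, Slc32a1 0.092, Sstr2 0.066 and Strn 0.083; without the filter Hdac4 0.018, Homer1 0.052, Htr2b 0.038, Sstr2 0.022 and Strn 0.062; with DESeq2 Homer1 0.019, Htr2b 0.00046 and Strn 0.030. Without single libraries the ranges that cross 0 were Cacna1b -0.083 to 0.15, Commd1 -0.067 to 0.24, Egf -0.37 to 0.041, Gabbr2 -0.069 to 0.30, Gad1 -0.14 to 0.050, Gfra2 -0.21 to 0.061, Hdac4 -0.17 to 0.065, Homer1 -0.18 to 0.14, Htr2b -0.19 to 0.14, Kcnk10 -0.22 to 0.039, Lhx8 -0.58 to 0.063, Mxra8 -0.026 to 0.38, Nos1 -0.47 to 0.0074, Plxnc1 -0.39 to 0.070, Slc32a1 -0.16 to 0.027, Sst -0.12 to 0.52, Sstr2 -0.20 to 0.13 and Strn -0.17 to 0.13. The cause was not tested. Base composition was not compared over sets, and a sequence was at hand for the genes of 71.8% of the tested windows. Depth limits weak promoters most, with 0.205 to 1.13 CPM allowed by a count of 0.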

Other observations

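Chromosomes differed as wholes in SOM+ nuclei. Of 982 promoters tested on chromosome X, 560 were called higher in CeA and 13 lower, and the median log2 difference was 0.70, or 0.49 with cyclic loess, against -0.19 in bulk nuclei. The excess did not depend on weak promoters alone: at 50 CPM and above the median was 0.40 for 96 X-linked promoters, against -0.31 for 7928 autosomal ones. Promoters of chromosome X took 2.26% to 2.51% of the counts in the 4 CeA SOM+ libraries, against 1.38% to 1.46% in the 4 cortex SOM+ libraries, with libraries labelled male and female in both ranges. In bulk nuclei the shares were 2.47% to 2.65% in CeA and 2.54% to 3.11% in cortex, so that the cortex SOM+ libraries stood below all other libraries. On chromosome 11 the order was the opposite: 126 of 1935 promoters were higher and 865 lower (median -0.32, or -0.29 with cyclic loess), and it took 6.86% to 7.51% of the counts in CeA SOM+ and 8.50% to 9.07% in cortex SOM+ libraries. The cause was not tested.

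Some genes had start sites that moved in opposite directions. Of 1263 genes with more than 1 tested window, 399 had more than 1 called, and 44 had calls in both directions, in 27 of which both windows separated the libraries of the regions without overlap. With cyclic loess both windows were called in 24 of the 44 and in 17 of the 27, and in the genes named here. Tiam2, of an exchange factor for the GTPase Rac, had a window at chr17:3481315-3484489 with 83.5 CPM in CeA and 29.2 CPM in cortex (log2 difference 1.52), and another, 85.1 kb away at chr17:3396207-3398206, with 5.84 CPM in CeA and 31.6 CPM in cortex (-2.43). Arhgef3, of a guanine nucleotide exchange factor, had windows 217.4 kb apart with 9.42 CPM in CeA and 4.41 CPM in cortex (1.06), and with 16.1 CPM in CeA and 35.5 CPM in cortex (-1.15). At Bdnf, which has many alternative first exons, the window at chr2:109562078-109564077 had 9.39 CPM in CeA and 2.65 CPM in cortex (1.77), and the stronger one 17.5 CPM in CeA and 31.2 CPM in cortex (-0.87). These genes were chosen after their values were seen.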
